A study of Homo sapiens with 6 samples.

Results

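SRM, ODC1 and 8 further genes of polyamine metabolism were read on 6 arrays of the human neuroblastoma cell line SK-N-BE(2). Of 14883 genes with a named probe set, 10 were members (SRM, ODC1, SMS, AMD1, SAT1, SMOX, PAOX, OAZ1, OAZ2 and AZIN1), and all 10 were measured. They were picked by gene symbol, and the rule kept the probe set with the highest mean over the 6 arrays, but each symbol had 1 probe set, so brightness decided nothing. The set was proposed with shBRG1 minus NSC values of these arrays in view, the rise of SRM among them. The members' changes are therefore a description, and an adjusted p printed for a member places it in the fit over all genes and is not independent support.

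The cells were transduced in triplicate with a pLKO lentivirus that expressed a BRG1 hairpin (shBRG1, n = 3) or, as the control, a hairpin labelled non-silencing (NSC, n = 3). BRG1, the product of SMARCA4, is the motor of SWI/SNF, a complex that moves nucleosomes. RNA was extracted 48 h after infection, and 200 ng of it was labelled for each Affymetrix array. Both groups share the line, the vector backbone and the infection, no uninfected cells were analysed here, and 1 hairpin stands for the loss of BRG1. The labels do not say whether the cultures were handled apart, so the p-values rest on a spread between samples that may be only technical, and transcript levels of SMARCA4 were not analysed here.

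Putrescine, spermidine and spermine are small positively charged molecules that bind nucleic acids and are needed for growth. Ornithine decarboxylase makes putrescine, and spermidine and spermine synthase each add an aminopropyl group taken from decarboxylated S-adenosylmethionine. Antizymes bind ornithine decarboxylase and lead it to the proteasome, antizyme inhibitors free it again, and acetylation and oxidation return the higher polyamines to putrescine. ODC1 is a textbook target of MYC and MYCN, and neuroblastoma with amplified MYCN is known for high polyamine synthesis.

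The promoters of SRM and ODC1 are shown because these enzymes catalyse consecutive steps, and SRM passed the test described below while ODC1 did not; the difference between them was not tested. Each sequence covers the 250 bases before the start of the gene on the minus strand, from RefSeq's GRCh38.p14 table, and capitals mark CACGTG, the E-box that MYC with MAX can bind, or TATAA, the core of a TATA box. The SRM window is chr1:11060019-11060268 and the ODC1 window chr2:10448328-10448577.
SRM: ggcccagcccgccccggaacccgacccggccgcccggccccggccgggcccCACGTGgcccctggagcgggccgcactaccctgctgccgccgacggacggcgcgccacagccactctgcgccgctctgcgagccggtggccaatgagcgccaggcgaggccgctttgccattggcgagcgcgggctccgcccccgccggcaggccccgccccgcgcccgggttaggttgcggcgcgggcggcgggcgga
ODC1: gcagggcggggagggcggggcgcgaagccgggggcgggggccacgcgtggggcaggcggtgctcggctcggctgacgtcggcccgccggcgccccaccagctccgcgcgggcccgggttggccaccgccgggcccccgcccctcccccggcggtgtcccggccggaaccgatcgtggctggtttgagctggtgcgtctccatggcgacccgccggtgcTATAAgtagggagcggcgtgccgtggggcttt

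The SRM window holds 1 CACGTG, whose first base is at position -199 from the start, and the ODC1 window holds 0. A second annotated ODC1 start, inside the gene, has 1 CACGTG that begins at -29. The ODC1 window holds 1 TATAA, at -32, and the SRM window holds 0. Both strands were searched. CACGTG was present in 7.94% and TATAA in 15.1% of 9436 measured genes with such a window, and each was in 1 of 7 members with one. Other annotated starts of AMD1, 1 base apart from each other, also have 1 TATAA each, at -29 and -28. SMOX, PAOX and AZIN1 were not in the table. TATAA was added after the sequences were read. These matches describe letters and do not show that a factor binds.

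Depth is not defined for arrays, and their number limits the precision. The 6 arrays had medians between 3.77 and 3.84 on the log2 scale, and the median standard error of a change was 0.09. In limma's fit across all genes, 17.0% passed an adjusted p of 0.05, which is the threshold used throughout, with 9.78% higher and 7.19% lower in shBRG1. Of these 2525 calls, 57.6% were higher, against 47.7% after cyclic loess scaling, and the count was 1633, 1662 and 1604 without shBRG1 replicate 1, 2 or 3. The identity of the cells was checked with marker lists. All 12 measured markers of sympathetic neuroblasts were brighter than the median gene (5.09), with means from 7.66 (TH) to 11.32 (STMN2), and 6 of them passed, each lower in shBRG1. Of 5 Schwann and glial markers 1 was brighter than the median gene and 1 passed, lower in shBRG1 (FOXD3, -0.24), with a summed log2 level of 20.9 to 21.1 in NSC and 20.0 to 20.2 in shBRG1. Both blood cell markers measured were dimmer, and by limma 0 passed, with 1 at an unadjusted p under 0.05. The 3 fibroblast markers measured lay above it. LUM (0.39) and DCN (0.44) rose, while THY1 did not pass in limma (-0.07, adjusted p = 0.58) and its groups overlapped. The summed log2 level of these 3, out of 7 listed, was 20.7 to 21.3 in NSC and 21.6 to 21.9 in shBRG1. Their part in the results below was not tested.

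Within the pathway, SRM was higher in shBRG1 and AZIN1 lower, and 8 of the 10 members did not pass. This is 1 member higher and 1 lower, beside 17.0% of all genes, a share from which nothing is read because the set was proposed from this contrast. The median change of the members was -0.02 on the log2 scale, while the median of all genes was 0.01. The arrays of shBRG1 lay above the NSC range in 3 members and below it in 4, and overlapped in 3, where 35.5% of all genes did not overlap.

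**Figure D1:**
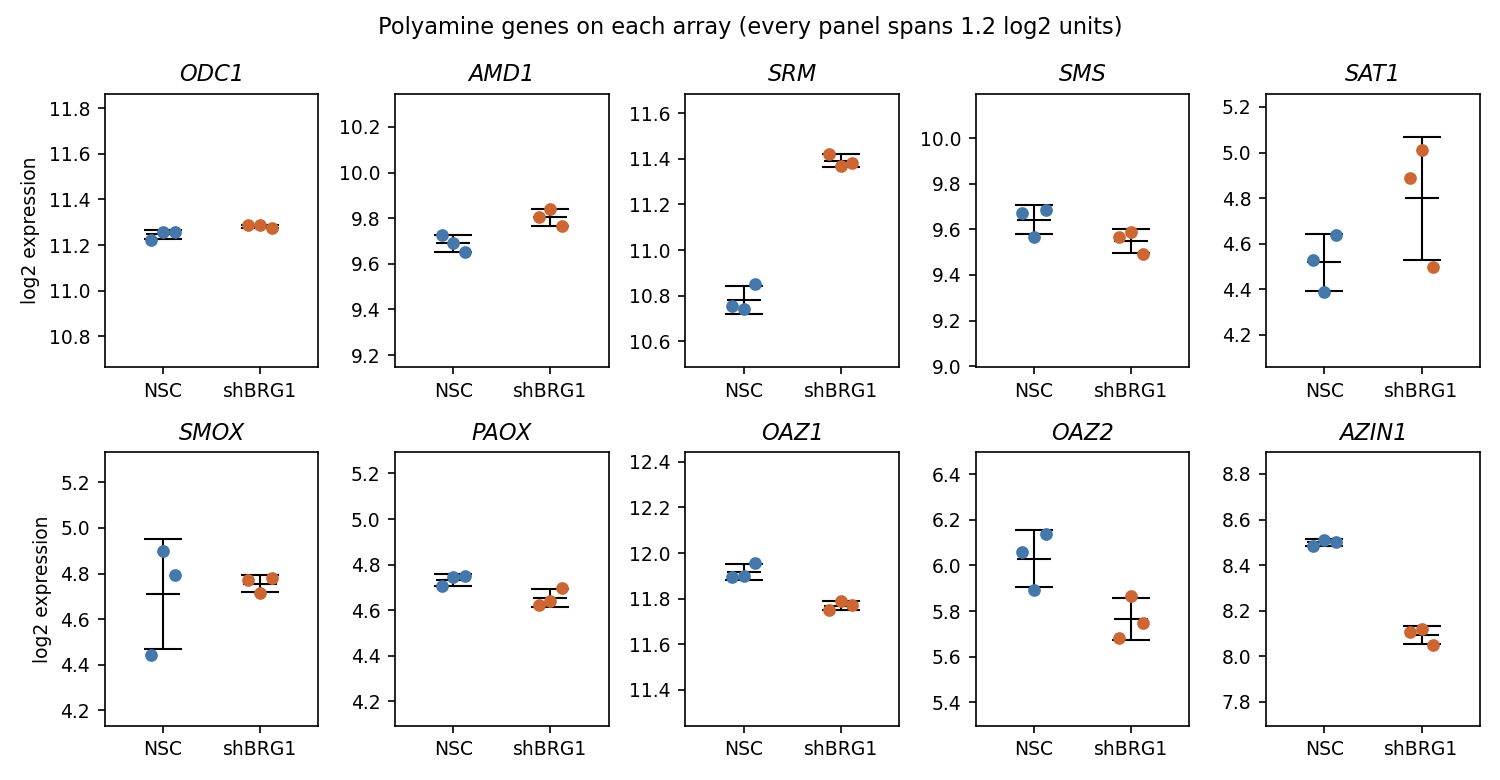
Log2 expression of each polyamine gene (panels) on each array, with NSC in blue and shBRG1 in orange. Points are arrays and black bars are the group mean and SD (n = 3), and each panel spans the same 1.2 log2 units around its own mean. SRM and AZIN1 show the widest gaps between groups, in opposite directions, and ODC1 the tightest points.

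Of the enzymes that build polyamines, SRM passed the threshold and ODC1, AMD1 and SMS did not. ODC1, ornithine decarboxylase, read 11.22, 11.26 and 11.26 in NSC and 11.29, 11.29 and 11.27 in shBRG1. The groups did not overlap, but the gap between them was smaller than the range within NSC. The change was 0.04 (SE 0.06, adjusted p = 0.75), with a 95% interval from -0.11 to 0.18, and it was -0.01 after cyclic loess scaling. The interval leaves room for a small change in either direction, and a p that misses the threshold does not show that ODC1 was equal in both groups.

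AMD1 encodes S-adenosylmethionine decarboxylase, which makes the aminopropyl donor of both synthases. It read 9.73, 9.69 and 9.65 in NSC and 9.80, 9.84 and 9.77 in shBRG1. All 3 shBRG1 arrays were above all NSC arrays, with a change of 0.11 (SE 0.06, 95% interval -0.04 to 0.26, adjusted p = 0.30).

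SRM encodes spermidine synthase, which turns putrescine into spermidine. It read 10.75, 10.74 and 10.85 in NSC and 11.42, 11.37 and 11.38 in shBRG1. Every shBRG1 array was above every NSC array by more than the range within either group. The means were 10.78 ± 0.06 and 11.39 ± 0.03 (SD, n = 3), a 1.53-fold difference (log2 change 0.61, SE 0.07, 95% interval 0.45 to 0.77, adjusted p = 0.0015). This change ranks 250 among 14883 genes ordered from the most raised.

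SMS encodes spermine synthase, the next step, from spermidine to spermine. It read 9.67, 9.57 and 9.69 in NSC and 9.57, 9.59 and 9.49 in shBRG1. The groups overlapped, and the change was -0.09 (SE 0.07, 95% interval -0.26 to 0.07, adjusted p = 0.43). The difference between SMS and SRM, the other aminopropyl transferase, was not tested.

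The genes of acetylation and oxidation were dim. SAT1, SMOX and PAOX had means of 4.66, 4.73 and 4.69, all under the 5.09 of the median gene, so their values may be close to background and changes in them can be understated. SAT1 encodes spermidine/spermine acetyltransferase, which marks polyamines for export or oxidation. It read 4.53, 4.39 and 4.64 in NSC and 4.89, 5.01 and 4.50 in shBRG1. Replicates 1 and 2 of shBRG1 were above all NSC arrays and replicate 3 was within their range. The change was 0.28 (SE 0.14, 95% interval -0.04 to 0.60, adjusted p = 0.23), and without shBRG1 replicate 3 it was 0.43 (adjusted p = 0.046, range over the alternatives 0.046 to 0.49).

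SMOX, spermine oxidase, read 4.44, 4.90 and 4.79 in NSC and 4.77, 4.71 and 4.78 in shBRG1. NSC replicate 1 was the lowest array, and the shBRG1 values lay within the NSC range. The change of SMOX was 0.05 (SE 0.12, adjusted p = 0.84), and its sign turned without NSC replicate 1 (-0.09). PAOX, the oxidase of acetylated polyamines, read 4.70, 4.75 and 4.75 in NSC and 4.62, 4.64 and 4.70 in shBRG1. Its groups were apart only in the third decimal, 4.704 against 4.698 at the nearest, with a change of -0.08 (SE 0.06, adjusted p = 0.46).

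Of the 3 members that regulate ornithine decarboxylase, AZIN1 passed, lower in shBRG1, and OAZ1 and OAZ2 did not. OAZ1 and OAZ2 encode antizymes, whose full translation needs a ribosomal frameshift that polyamines promote. OAZ1 read 11.89, 11.90 and 11.96 in NSC and 11.75, 11.79 and 11.77 in shBRG1. The groups did not overlap, and the change was -0.15 (SE 0.06, 95% interval -0.29 to 0.001, adjusted p = 0.17). With trend and robust options in limma's variance model the adjusted p was 0.0015, within a range of 0.0015 to 0.34 over the alternatives.

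OAZ2 read 6.06, 5.89 and 6.14 in NSC and 5.68, 5.87 and 5.75 in shBRG1. NSC replicate 2 and shBRG1 replicate 2 nearly met, without overlap. The change was -0.26 (SE 0.09, 95% interval -0.47 to -0.06, adjusted p = 0.088). It passed after cyclic loess scaling (-0.31, adjusted p = 0.040) and with dim genes left out (adjusted p = 0.032), a setting in which 43.0% of all genes tested passed. The range over the alternatives was 0.032 to 0.22.

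AZIN1 encodes antizyme inhibitor, an inactive relative of ornithine decarboxylase that binds antizyme in its place. It read 8.48, 8.51 and 8.50 in NSC and 8.11, 8.12 and 8.05 in shBRG1. All 3 shBRG1 arrays were lower than all NSC arrays, by far more than the range within a group. The means were 8.50 ± 0.01 and 8.09 ± 0.04 (SD, n = 3), a 1.33-fold difference (log2 change -0.41, SE 0.06, 95% interval -0.55 to -0.26, adjusted p = 0.0055). It ranks 759 among 14883 genes ordered from the most lowered. SRM and AZIN1 kept their calls in all 13 alternatives in which each was tested.

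**Figure D2:**
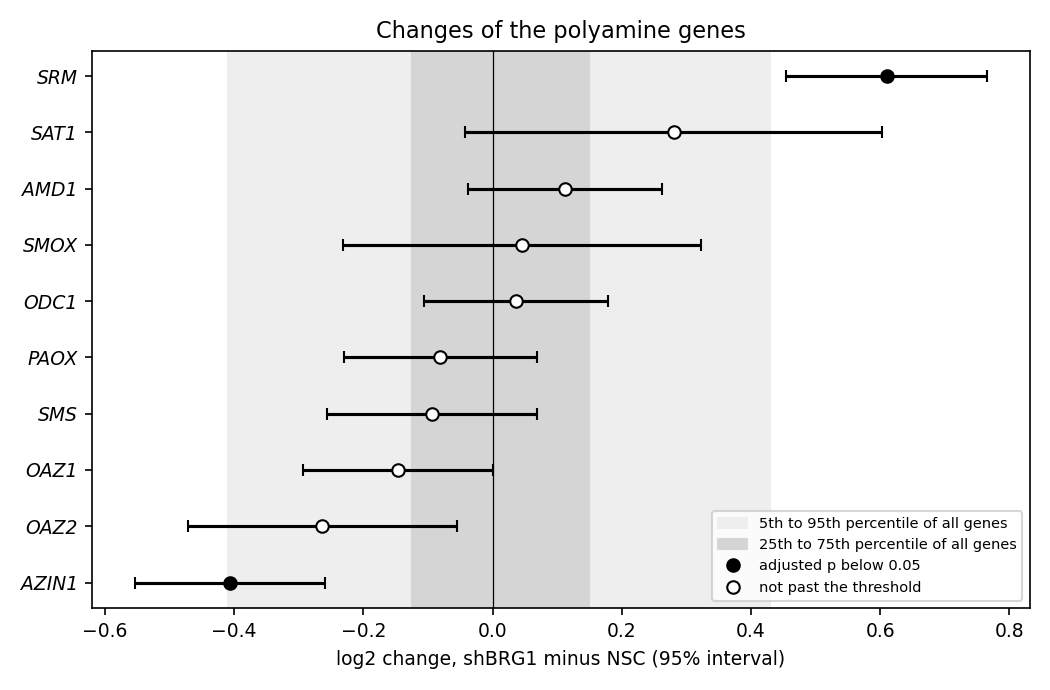
Log2 change of each polyamine gene, shBRG1 minus NSC, with its 95% interval from limma (n = 3 and 3); filled points passed the threshold. Grey bands give the middle of all 14883 genes (5th to 95th percentile, -0.41 to 0.43, and 25th to 75th, -0.12 to 0.15). SRM, at 0.61, lies beyond the outer band, and AZIN1, at -0.41, at its edge.

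**Figure D3:**
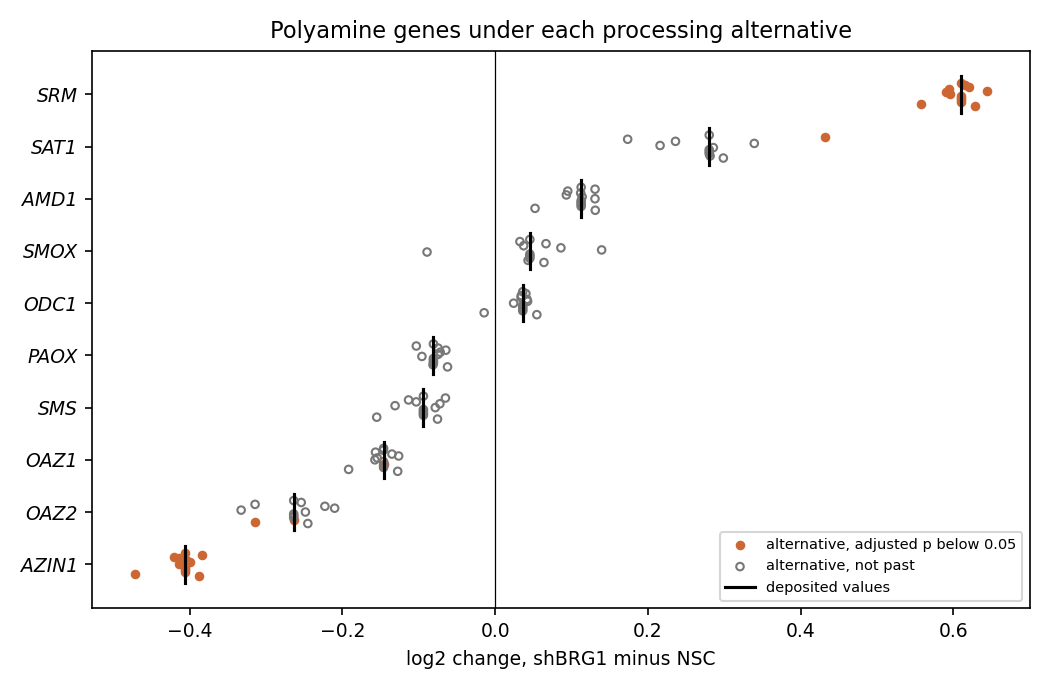
Log2 change of each polyamine gene under each processing alternative (points, orange where the adjusted p was below 0.05) and in the deposited values (black line). All points of SRM (0.56 to 0.64) and AZIN1 (-0.47 to -0.38) are orange, as are 1 of SAT1, 1 of OAZ1 and 2 of OAZ2.

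The genes whose 6 values ran most like those of SRM and ODC1 were named by the smallest Euclidean distance between profiles centred on their own means, among 7197 other genes brighter than the median gene. For SRM they were VIPAS39 (distance 0.067, change 0.63), HEMK2 (0.078, change 0.64) and OLFM3 (0.078, change 0.59). For ODC1 they were WAPL (0.021, change 0.04), CHCHD3 (0.025, change 0.03) and NCL (0.031, change 0.02). These distances rest on 6 arrays in 2 groups.

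Around the core pathway, 6 lists of supply, cofactor and use were counted. Of 34 measured genes of 55 listed, 3 rose, 4 fell and 27 did not pass, 20.6% against 17.0% of all genes, with a median change of 0.00. The 2 shares are close, and with the MYC network below, the 9 calls among 43 genes became 3 to 5 without any 1 of the 6 arrays (4, 3 and 4 without NSC replicate 1, 2 or 3 and 5, 5 and 3 without shBRG1 replicate 1, 2 or 3).

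Among 7 genes of arginine and ornithine supply, 1 fell and 1 rose, with a median change of 0.02. ASS1, argininosuccinate synthase, which makes the precursor of arginine, read 11.32, 11.32 and 11.32 in NSC and 10.28, 10.35 and 10.34 in shBRG1. The groups were far apart, a 2.00-fold fall (-0.999, SE 0.06, adjusted p = 2.2e-04), rank 71 among the most lowered genes, and the call held in all 13 alternatives. ASL, the enzyme that follows it, had a change of -0.12 (SE 0.06, adjusted p = 0.23). OAT, ornithine aminotransferase, rose by 0.26 (SE 0.07, adjusted p = 0.047). Its call was lost without any 1 of the 6 arrays and under both other scalings (adjusted p up to 0.13). The call was also lost with a block for the replicate number (adjusted p = 0.13) and when every probe set was tested (adjusted p = 0.14). AZIN2, the second antizyme inhibitor, read 2.98 ± 0.11 in NSC, a dim level, and its change was -0.08.

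Of 8 genes of the methionine and S-adenosylmethionine cycle, 2 rose and 1 fell. AHCY, which clears S-adenosylhomocysteine, read 7.77, 7.77 and 7.90 in NSC and 8.27, 8.27 and 8.24 in shBRG1. All shBRG1 arrays were higher, a 1.36-fold rise (0.45, SE 0.07, adjusted p = 0.0052) that held in all 13 alternatives. AHCYL1, a relative of AHCY, rose by 0.27 (adjusted p = 0.044), and MTR, methionine synthase, was lower (-0.23, adjusted p = 0.043). Both calls were lost without any 1 of the 6 arrays and after centring (adjusted p up to 0.12 for each gene). Both were also lost with a block for the replicate number and when every probe set was tested (adjusted p up to 0.13 for AHCYL1 and 0.14 for MTR). AHCYL1 did not pass after cyclic loess scaling either (adjusted p = 0.083). MAT2A and MAT2B were not analysed here.

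Methylthioadenosine is the by-product of both synthases, and its salvage returns it to methionine. By limma 0 of 5 salvage genes passed, with 1 at an unadjusted p under 0.05 (MRI1, change 0.30, adjusted p = 0.091). MTAP, the first enzyme of the salvage, had a change of -0.15 (SE 0.08, adjusted p = 0.26). When only genes brighter than the median one were tested, 1 of 5 salvage genes passed, higher in shBRG1. In that setting 43.0% of all genes tested passed, and 1977 of 7441 passed as higher. With a trended, robust variance model 1 of 5 passed, higher in shBRG1, where 22.2% of all genes passed and 1984 of 14883 passed as higher.

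Spermidine donates the side chain of hypusine, a modified lysine of the translation factor eIF5A. EIF5A2, which encodes the less widely expressed form of the factor, fell, from 8.79, 8.68 and 8.68 in NSC to 8.46, 8.39 and 8.26 in shBRG1 (-0.35, SE 0.08, adjusted p = 0.023). The groups did not overlap, but leaving out any array other than shBRG1 replicate 1 ended the call (adjusted p up to 0.074). Testing every probe set also ended it (adjusted p = 0.077). EIF5A (0.05, adjusted p = 0.76) and DHPS, which starts the modification (0.07, adjusted p = 0.65), did not pass, and 1 of 5 genes of this list did.

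Of 16 genes of polyamine and precursor transport 4 were measured, and 1 fell. GPC1, the heparan sulphate proteoglycan glypican 1, had a change of -0.42 (SE 0.09, adjusted p = 0.018) on its brighter probe set, but 0.11 on the dimmer one. Averaging both gave -0.15 (adjusted p = 0.37), and the call was also lost without NSC replicate 1 or 2 or shBRG1 replicate 3. ATP13A3, a polyamine transporter, had a change of -0.09 (adjusted p = 0.45). Among 5 other genes of polyamine turnover 0 passed in limma, with 1 at an unadjusted p under 0.05, the acetyltransferase relative SAT2 (-0.35, adjusted p = 0.096). Under cyclic loess 1 of 5 passed, lower in shBRG1, where 17.1% of all genes passed. With trend and robust options 1 of 5 was also lower (22.2% of all genes passed), as without shBRG1 replicate 2 (11.2% passed). Without the dim genes 1 of 2 tested was lower, where 43.0% of all genes tested passed.

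In the MYC network, 2 of 9 measured genes passed, both higher, with a median change of 0.11. Their share, 22.2%, is close to the 17.0% of all genes that passed in either direction, and 9.78% of all genes passed as higher. With genes under the median brightness omitted, 4 of 8 tested passed, all higher. In that setting 43.0% of all genes tested passed, and 1977 of 7441 passed as higher. With a trended, robust variance model 4 of 9 passed, all higher, where 22.2% of all genes passed and 1984 of 14883 passed as higher. MAX, the partner that MYC proteins need to bind DNA, read 6.13, 6.16 and 6.12 in NSC and 6.53, 6.48 and 6.53 in shBRG1. The groups were well apart, a 1.30-fold rise (0.38, SE 0.06, adjusted p = 0.0068) that held in all 13 alternatives. MGA, a MAX-binding repressor, rose by 0.27 (adjusted p = 0.023). Its call was lost without any 1 of the 6 arrays (adjusted p up to 0.075). The call was also lost with a block for the replicate number (adjusted p = 0.088) and when every probe set was tested (adjusted p = 0.083). MYC itself read 3.48 ± 0.16 in NSC, under the median gene, with a difference of -0.27 that did not pass (adjusted p = 0.19), and MYCN was not analysed here.

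**Figure D4:**
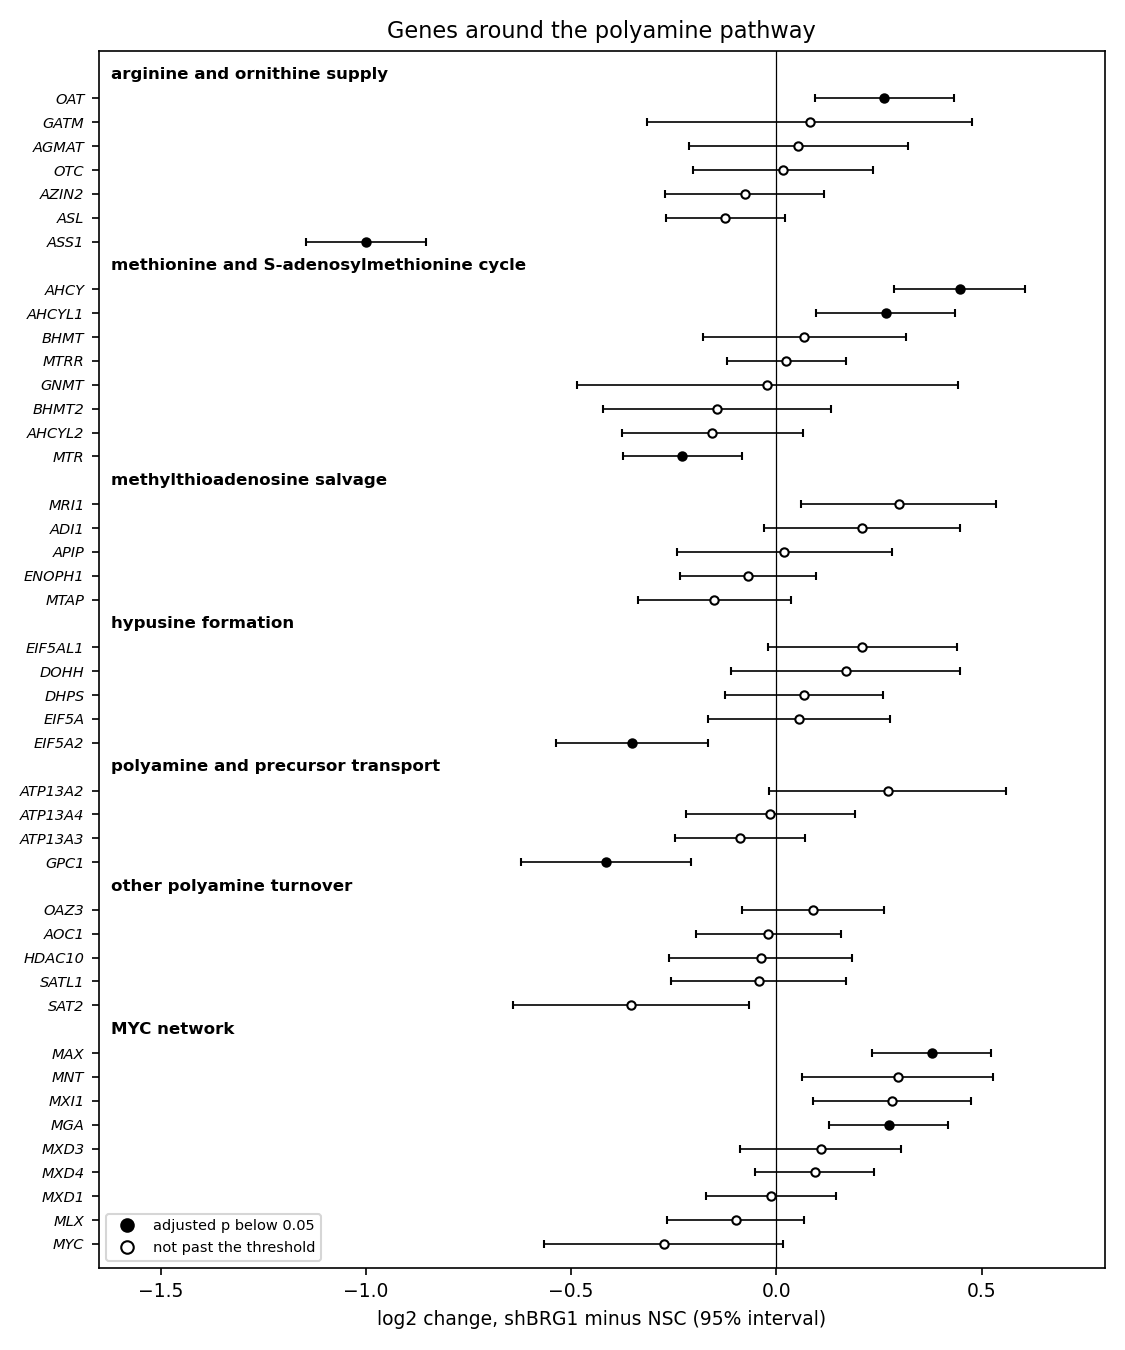
Log2 change, shBRG1 minus NSC, with its 95% interval from limma (n = 3 and 3) for the 43 measured genes of 7 lists around the polyamine pathway; filled points passed the threshold. ASS1, at -0.999, lies farthest from 0, and AHCY, at 0.45, is the most raised.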

How the data were processed

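The deposited table holds log2 values per probe set, which the authors made with RMA (background correction, setting arrays to a common distribution, summary of probes), oligo 1.27, limma 3.19 and R 3.1.0, per the submitters' processing notes. RMA hides a shift of all genes at once and can compress differences at both ends of the brightness range. The log2 scale was taken from the range of values, 1.19 to 13.8, and no genome build for the probes is given in these sources. Scanner files, detection calls and scan batches were not used here.

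Of 52299 probe sets, 15828 had 1 gene symbol. The other 36471 had no symbol or more than 1, and were left out of the fit over genes. Symbols were updated through GRCh38.p14 gene identifiers, and the brightest probe set per gene was kept, giving 14883 genes with no filter on dim ones. Groups follow the lentivirus label. All genes were fitted once with limma 3.58.1 in R 4.3.3 (lmFit, eBayes, two-sided, no covariates) with Benjamini-Hochberg adjustment over all genes. With 3 arrays a group the smallest exact permutation p is 0.1, so no such test was run. The members, the lists, the tests and the alternatives were chosen with earlier results of these data known. Named are all members, every gene of the lists around the pathway (not of the marker lists) that passed, a few fixed genes, and the 3 profiles most like SRM and ODC1; ASL, AZIN2, MRI1, ATP13A3, SAT2 and the markers were added after their values were seen. The 13 alternatives were median centring, cyclic loess, leaving out dim genes, averaging probe sets, trend and robust options, a block for the replicate number, omitting each of the 6 arrays, and testing every probe set. Simulated data had 14883 genes and 3 arrays per group, with log2 changes of size 0.5 in 100 genes and of size 1 in 100 others. The fit recovered 40 and 85 of them, and 6 of its 131 calls were false. Far fewer genes changed there than the 2525 called here, so these figures do not give the recovery in the real data. Figures were drawn with matplotlib 3.10.9.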

Additional observations from a re-analysis of the deposited data

How the results depend on the processing

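Over the 13 alternatives, 7 of the 10 polyamine genes stayed on their side of the threshold throughout, SRM and AZIN1 as calls, while SAT1, OAZ1 and OAZ2 gained a call under 1, 1 and 2 alternatives. ODC1 and SMOX, neither of them called, changed sign, ODC1 after cyclic loess (-0.01) and SMOX without NSC replicate 1 (-0.09). Of 19 other genes that the naming rule gave, 13 stayed on their side throughout, while the genes named outside the rule and the markers were not run; the cause of the losses in the rest was not tested. The count over all genes was 1608 with the replicate block and 1604 to 1840 when each array was left out. The 9 calls in the lists around the pathway became 5 with the replicate block and 3 when every probe set was tested (with 52299 p-values to adjust for). They became 3 to 5 when each array was left out, which also leaves fewer samples. The count was 6 after median centring, 8 after cyclic loess and 8 with probe sets averaged. It was 13 with trend and robust options (22.2% of all genes passed) and 13 of 30 tested without dim genes (43.0% passed). The replicate numbers are not known to pair the samples: the deviations of same-numbered arrays correlated at -0.04, -0.14 and -0.03 across genes, and the block changed no call of a polyamine gene. Genes dimmer than the median gene (SAT1, SMOX and PAOX) were not tested when dim genes were left out.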
